A study of Mus musculus with 14 samples.

Results

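The cytochrome P450 genes of families 1 to 4 were taken as every probe set whose gene symbol begins with Cyp, a family number from 1 to 4, a subfamily letter and a digit. Cyp4a12a and Cyp4a12b were left out, and the brightest probe set would have stood for a symbol with several. This gave 78 members among 22206 tested probe sets, 75 genes and 3 pseudogenes, each with 1 probe set. RNA was hybridised to Clariom S mouse arrays, which carry short DNA probes for well-annotated transcripts. The mice were adult wild-type C57Bl6 males that received their diet for 2 weeks. CDAA is a choline-deficient, amino acid-defined diet, here supplemented with cholesterol, glucose and fructose, and CSAA is its choline-supplemented control. Total liver came from the caudal lobe after the animals had been perfused with saline, with 4 arrays on CDAA and 4 on CSAA. Primary hepatocytes came from a collagenase perfusion of the liver, with 3 arrays on CDAA and 3 on CSAA, and their RNA was extracted with another kit than that of total liver. The labels call the preparations independent without saying which animals they came from, so p-values measure the spread between these arrays.

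P450 enzymes are heme proteins of the endoplasmic reticulum that take electrons from P450 oxidoreductase and insert an oxygen atom into their substrate. In the liver, families 1 to 3 mainly oxidise drugs, toxins and steroids and partly fatty acids, while family 4 mainly hydroxylates fatty acids and eicosanoids. Their genes lie in clusters of close copies and answer to receptors such as AhR (for Cyp1), CAR and PXR (for Cyp2b and Cyp3a) and PPAR alpha (for Cyp4a). In mice several of them also differ between the sexes under the control of growth hormone.

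Values are on the authors' log2 scale, where they reached 19.9, so a difference of 1 is not taken as a doubling and no linear folds are given. Levels were not compared between the tissues, whose array medians lay at 6.07 to 6.24 in total liver and 4.56 to 4.71 in hepatocytes. Other cells' markers moved with the diet. Of 15 Kupffer cell and macrophage markers, 12 passed as higher in total liver on CDAA and all 15 in hepatocytes. Their mean level was 11.1 to 12.8 over the 3 CDAA hepatocyte arrays, against 4.82 to 5.28 on CSAA, where all 15 lay under the background level used below. In hepatocytes 13 of 14 sinusoidal endothelial and 11 of 11 stellate cell markers were also higher. Of 18 hepatocyte markers, 2 were lower in total liver and 8 in hepatocytes, where their mean level was 17.4 to 17.8 on CDAA and 18.4 to 18.6 on CSAA. The part of other cells in the P450 values was not tested, and in bulk RNA fewer cells of a type and less RNA per cell cannot be told apart. CDAA hepatocyte replicates 1 and 3 stood apart from their group, with root mean square deviations of 0.594 and 0.519 from the group mean, against 0.363 in replicate 2. Over the P450 members alone these were 0.842, 0.814 and 0.307 in replicates 1, 3 and 2. Background was read from 2 kinds of control on each array. The 95th percentile of the negative control probe sets lay at 9.96 to 10.2 in total liver and 6.84 to 8.01 in hepatocytes, and the brightest antigenomic control at 6.87 to 7.36 and at 5.59 to 6.97. By the negative controls, 31 members in total liver and 24 in hepatocytes lay under background on both diets.

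Promoter sequences from RefSeq (GRCm38.p6) were matched by symbol to 62 of the 78 members. Of these, 7 are printed, each running from 250 bases before the start of the gene to 50 after it. Cyp2a4 (chr7:26306942-26307241, + strand) and Cyp2a5 (chr7:26835089-26835388, + strand) are shown because they had the largest rises. Cyp2b9 (chr7:26173159-26173458, + strand) and Cyp2b13 (chr7:26061245-26061544, + strand) are shown as near copies with unlike values. Cyp2c40 (chr19:39812765-39813064, − strand) and Cyp2c69 (chr19:39886720-39887019, − strand) are female-biased genes that were lower on CDAA, and Cyp3a41b (chr5:145584681-145584980, − strand) is one that was higher. Capitals mark 4 motifs on either strand: TATAAA (the element bound by the TATA-binding protein), CAAAGTCCA (an HNF4 motif), AGGTCA (a core hexamer of many nuclear receptors) and TTATGNAA (a D-box).
Cyp2a4: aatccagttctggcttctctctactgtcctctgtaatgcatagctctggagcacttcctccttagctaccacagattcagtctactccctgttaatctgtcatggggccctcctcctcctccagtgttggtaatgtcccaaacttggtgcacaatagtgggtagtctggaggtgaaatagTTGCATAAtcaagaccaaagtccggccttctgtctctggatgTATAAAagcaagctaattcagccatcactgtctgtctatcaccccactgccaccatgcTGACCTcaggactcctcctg
Cyp2a5: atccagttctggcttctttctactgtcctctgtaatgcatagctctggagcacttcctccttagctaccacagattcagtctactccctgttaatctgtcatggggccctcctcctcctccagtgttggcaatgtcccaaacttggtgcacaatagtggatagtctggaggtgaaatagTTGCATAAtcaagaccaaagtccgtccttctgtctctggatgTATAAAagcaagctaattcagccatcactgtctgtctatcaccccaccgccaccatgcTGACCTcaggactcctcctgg
Cyp2b9: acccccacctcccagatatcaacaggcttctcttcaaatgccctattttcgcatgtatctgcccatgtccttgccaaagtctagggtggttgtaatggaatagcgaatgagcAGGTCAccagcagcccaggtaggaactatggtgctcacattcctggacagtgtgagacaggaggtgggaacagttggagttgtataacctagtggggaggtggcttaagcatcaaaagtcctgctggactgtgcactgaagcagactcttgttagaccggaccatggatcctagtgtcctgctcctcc
Cyp2b13: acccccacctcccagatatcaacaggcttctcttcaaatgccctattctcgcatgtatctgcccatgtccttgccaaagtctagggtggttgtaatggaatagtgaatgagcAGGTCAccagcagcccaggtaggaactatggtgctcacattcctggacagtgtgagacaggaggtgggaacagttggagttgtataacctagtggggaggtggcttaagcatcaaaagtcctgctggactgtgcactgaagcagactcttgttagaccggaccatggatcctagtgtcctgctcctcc
Cyp2c40: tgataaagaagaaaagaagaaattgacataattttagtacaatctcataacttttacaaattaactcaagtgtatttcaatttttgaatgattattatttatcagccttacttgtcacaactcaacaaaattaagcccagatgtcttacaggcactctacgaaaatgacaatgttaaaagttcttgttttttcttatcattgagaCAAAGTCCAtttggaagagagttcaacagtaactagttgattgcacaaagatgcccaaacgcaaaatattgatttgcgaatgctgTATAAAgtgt
Cyp2c69: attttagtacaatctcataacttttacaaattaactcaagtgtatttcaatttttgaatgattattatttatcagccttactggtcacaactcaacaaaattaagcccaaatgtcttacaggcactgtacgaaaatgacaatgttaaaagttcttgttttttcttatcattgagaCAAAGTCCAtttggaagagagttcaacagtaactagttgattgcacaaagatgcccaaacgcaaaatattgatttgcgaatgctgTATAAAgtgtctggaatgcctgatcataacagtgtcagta
Cyp3a41b: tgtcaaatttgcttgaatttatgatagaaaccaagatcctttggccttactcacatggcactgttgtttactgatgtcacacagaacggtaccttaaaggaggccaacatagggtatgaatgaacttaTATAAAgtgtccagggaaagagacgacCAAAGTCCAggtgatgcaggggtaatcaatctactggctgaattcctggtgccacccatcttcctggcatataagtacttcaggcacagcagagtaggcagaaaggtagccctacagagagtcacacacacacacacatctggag

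In alignment, 294 of 300 bases were identical between the Cyp2a4 and Cyp2a5 windows, 298 between Cyp2b9 and Cyp2b13, 267 between Cyp2c40 and Cyp2c69, and 292 between Cyp3a41a and Cyp3a41b. Some of the 62 genes have several promoters in the table, and the HNF4 motif lay in 10 of the members' 69 promoters (14.5%), against 0.475% of all 32851 promoters of this length. TATAAA lay in 39.1% of the members' promoters against 13.6% of all, the hexamer in 27.5% against 16.3%, and the D-box in 8.70% against 3.38%. Of the 10 genes with the HNF4 motif, 3 were higher, 4 lower and 3 not passed in total liver. A match is a description of the letters and not of a bound site.

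Families 1 to 4 had calls in both directions, and some subfamilies had calls in 1 direction. Cyp2c in hepatocytes and Cyp4f in total liver had calls in both. On CDAA the Cyp2a and Cyp3a members that passed the test were all higher and the Cyp2d members all lower, in both tissues. In total liver 32 of the 78 members passed at an adjusted p under 0.05 (41.0%), against 10.3% of all tested probe sets. There 11 were higher (14.1%, against 6.73% of all probe sets) and 21 lower (26.9%, against 3.54%). In hepatocytes 39 members passed (50%), against 18.7% of all probe sets. Of the members, 10 were higher (12.8%, near the 11.0% of all probe sets) and 29 lower (37.2%, against 7.74%). The spread of hepatocyte arrays was larger than that of total liver, and with the spread of the hepatocyte arrays alone 24 members passed (30.8%, against 8.48% of all probe sets). That fit kept 6 of the 10 higher and 17 of the 29 lower members, whereas the fit of total liver alone kept all 32 and passed 42 (53.8%, against 20.8% of all probe sets). Cyp2c23, Cyp2c38, Cyp2c50, Cyp2d22, Cyp2j6, Cyp3a16 and Cyp4f13 passed in hepatocytes and not in total liver in the joint fit, and the other way round with each tissue's own spread. No difference between the tissues is read from these calls. The median difference of the members was -0.25 in total liver, against -0.09 over all probe sets, and -0.41 in hepatocytes, against -0.13. The groups did not overlap for 14 members higher (17.9%, against 13.1% of all probe sets) and 29 lower (37.2%, against 12.0%) in total liver. In hepatocytes they did not overlap for 12 higher (15.4%, against 12.4%) and 35 lower (44.9%, against 14.2%).

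**Figure D1:**
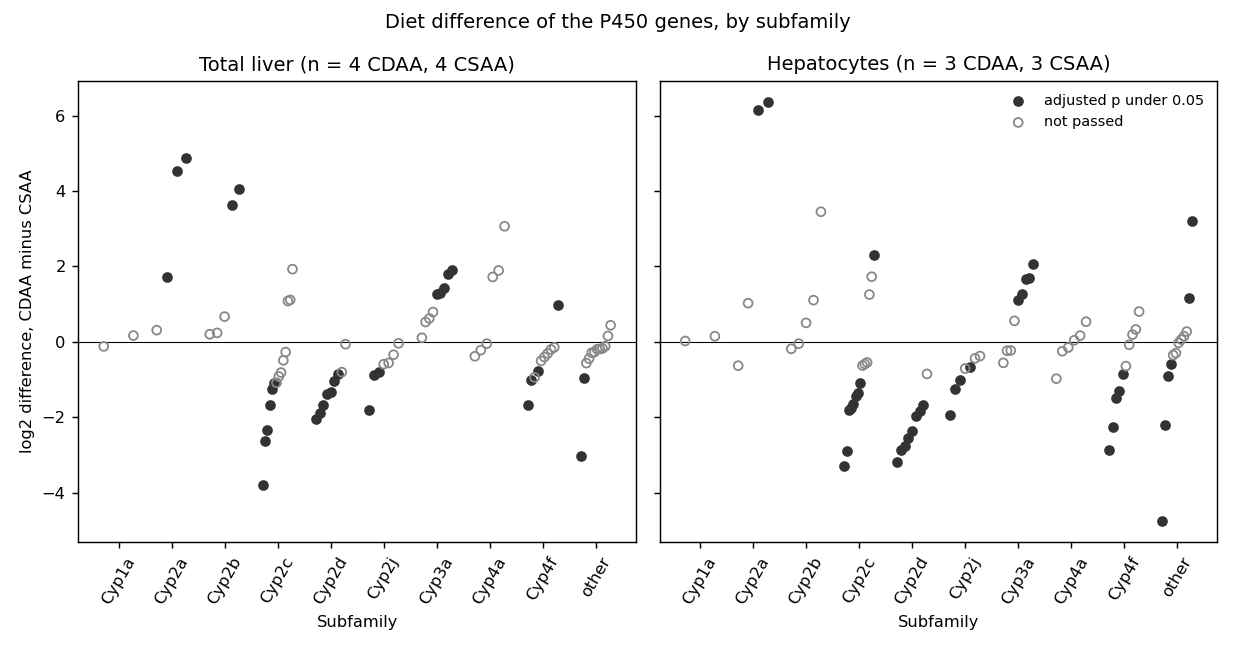
Differences on the log2 scale (CDAA minus CSAA) of the 78 members, 1 point each, by subfamily, in total liver on the left and hepatocytes on the right; filled points passed at an adjusted p under 0.05 and open points did not. Passing Cyp2a and Cyp3a members lie above 0 and passing Cyp2d members below it in both tissues, while no Cyp1a or Cyp4a member passed.

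The Cyp2a subfamily held the largest rises, in Cyp2a4 and Cyp2a5. Cyp2a5 encodes the coumarin hydroxylase of mouse liver, and Cyp2a4 a testosterone hydroxylase that is a near copy of it. Of the 4 members, 3 were higher in total liver and 2 in hepatocytes. Cyp2a4 read 13.39, 14.02, 15.37 and 14.74 in CDAA total livers, against 8.92, 10.73, 9.38 and 9.02 in CSAA total livers. It read 14.19, 16.18 and 15.20 in CDAA hepatocytes, against 8.28, 8.10 and 10.10 in CSAA hepatocytes. Every CDAA array lay above every CSAA array of its tissue, by more than the spread within any group. Cyp2a4 was higher by 4.87 ± 0.55 (SE, adjusted p = 3.35e-05) in total liver and by 6.36 ± 0.64 (adjusted p = 2.85e-06) in hepatocytes. Cyp2a5 averaged 17.42 ± 0.50 in CDAA and 12.90 ± 0.63 in CSAA total livers (SD, n = 4 each). In hepatocytes it averaged 17.97 ± 0.94 on CDAA and 11.83 ± 1.76 on CSAA (SD, n = 3 each). Its groups did not overlap either, and its differences were 4.52 ± 0.59 (adjusted p = 0.000118) and 6.14 ± 0.68 (adjusted p = 7.13e-06). The coding sequences of these genes are near copies, so how far each probe set reads the other gene is uncertain. Cyp2a22 read 11.76, 11.04, 12.80 and 11.74 in CDAA total livers, against 10.12, 10.02, 9.83 and 10.47 in CSAA total livers, again without overlap (difference 1.72 ± 0.38, adjusted p = 0.00779). In hepatocytes its difference of 1.02 ± 0.44 did not pass (adjusted p = 0.125). Cyp2a12, a bile acid and steroid hydroxylase, did not pass in either tissue, with differences of 0.31 ± 0.30 (adjusted p = 0.587) and -0.63 ± 0.35 (adjusted p = 0.240).

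In the Cyp2b subfamily, 2 of 5 members were higher in total liver and none passed in hepatocytes. Cyp2b10 is the classical phenobarbital-inducible CAR target of mouse liver. It read 9.21, 7.78, 8.75 and 8.83 in CDAA total livers, against 4.33, 6.21, 5.44 and 4.04 in CSAA total livers, without overlap. The difference was 3.64 ± 0.51 (adjusted p = 0.000218). All CSAA arrays lay under the brightest antigenomic control, so the difference was at least 1.61, and by the negative controls both diets lay under background. In hepatocytes Cyp2b10 read 6.47, 5.0 and 4.52 on CDAA, against 5.05, 3.86 and 3.77 on CSAA, and these overlapping values did not differ past the threshold (1.11 ± 0.59, adjusted p = 0.218). Cyp2b9, female-biased in mouse liver, was uneven among the CDAA mice. It read 10.14, 4.68, 10.28 and 7.49 in CDAA total livers, against 4.40, 3.87, 4.03 and 4.04 in CSAA total livers. In hepatocytes it read 10.60, 7.34 and 3.99 on CDAA, against 4.00, 4.06 and 3.53 on CSAA. Replicate 2 of the CDAA total livers and replicate 3 of the CDAA hepatocytes lay close to the CSAA values, while the other CDAA arrays lay far above them. The difference was 4.06 ± 1.20 in total liver (adjusted p = 0.0431), at least 1.12 by the antigenomic controls and with no bound by the negative ones, and 3.45 ± 1.39 in hepatocytes (adjusted p = 0.100). The total liver call was lost on leaving out any array other than CDAA hepatocyte replicates 1 and 3 and CDAA total liver replicate 2, with adjusted p up to 0.148. Cyp2b13, whose promoter window differs from that of Cyp2b9 at 2 bases, lay under background on both diets. It read 5.14, 4.37, 4.70 and 4.63 in CDAA total livers, against 3.85, 3.97, 4.30 and 4.06 in CSAA total livers. Its groups did not overlap, but the difference of 0.67 ± 0.24 did not pass (adjusted p = 0.103). With the spread of total liver alone it did (adjusted p = 0.0241). Cyp2b19 and Cyp2b23 passed in neither tissue, with differences from -0.19 to 0.50.

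In the Cyp3a subfamily, 5 of 9 members were higher in each tissue and none lower. Cyp3a11 is the abundant drug-oxidising P450 of mouse liver and a PXR target. It read 18.79, 18.18, 18.68 and 18.53 in CDAA total livers, against 17.14, 17.46, 17.54 and 16.95 in CSAA total livers. It read 19.15, 19.48 and 19.35 in CDAA hepatocytes, against 17.31, 18.13 and 17.54 in CSAA hepatocytes. The diets did not overlap in either tissue, and the differences were 1.27 ± 0.22 (adjusted p = 0.00110) and 1.66 ± 0.25 (adjusted p = 0.000163). Cyp3a41a, Cyp3a41b and Cyp3a44 are close copies that are female-biased in mouse liver. Cyp3a41b averaged 11.14 ± 0.51 in CDAA and 9.35 ± 0.48 in CSAA total livers (SD, n = 4 each), and 10.78 ± 0.05 in CDAA and 8.71 ± 0.14 in CSAA hepatocytes (SD, n = 3 each). Its differences were 1.79 ± 0.26 (adjusted p = 0.000329) and 2.07 ± 0.30 (adjusted p = 0.000123). As the CSAA total livers lay under the negative controls, the first is at least 1.06. Cyp3a44 was higher by 1.30 ± 0.24 (at least 0.54 by the negative controls) and 1.69 ± 0.28, and Cyp3a41a by 1.90 ± 0.27 and 1.26 ± 0.31. In total liver Cyp3a41a lay under the negative controls on both diets, and in hepatocytes its call was lost without CSAA replicate 1 (adjusted p = 0.0522). With the spread of the hepatocyte arrays alone, Cyp3a11, Cyp3a41b and Cyp3a44 kept their calls. Cyp3a16, known as the fetal form, passed in hepatocytes, where it lay under background on both diets (1.11 ± 0.26, adjusted p = 0.00726), but not in total liver (0.52 ± 0.23, adjusted p = 0.176), the reverse of its calls with each tissue's own spread. Cyp3a59 passed in total liver (1.43 ± 0.39, adjusted p = 0.0290) and not in hepatocytes (0.56 ± 0.45, adjusted p = 0.440), though its groups overlapped in total liver and not in hepatocytes. Its call was lost without CSAA total liver replicate 1, 3 or 4 or CDAA replicate 1, 3 or 4, with adjusted p of 0.0674 to 0.0929. Cyp3a13, Cyp3a25 and Cyp3a57 passed in neither tissue. Their differences were 0.11, 0.62 and 0.79 in total liver and -0.23, -0.24 and -0.56 in hepatocytes.

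**Figure D2:**
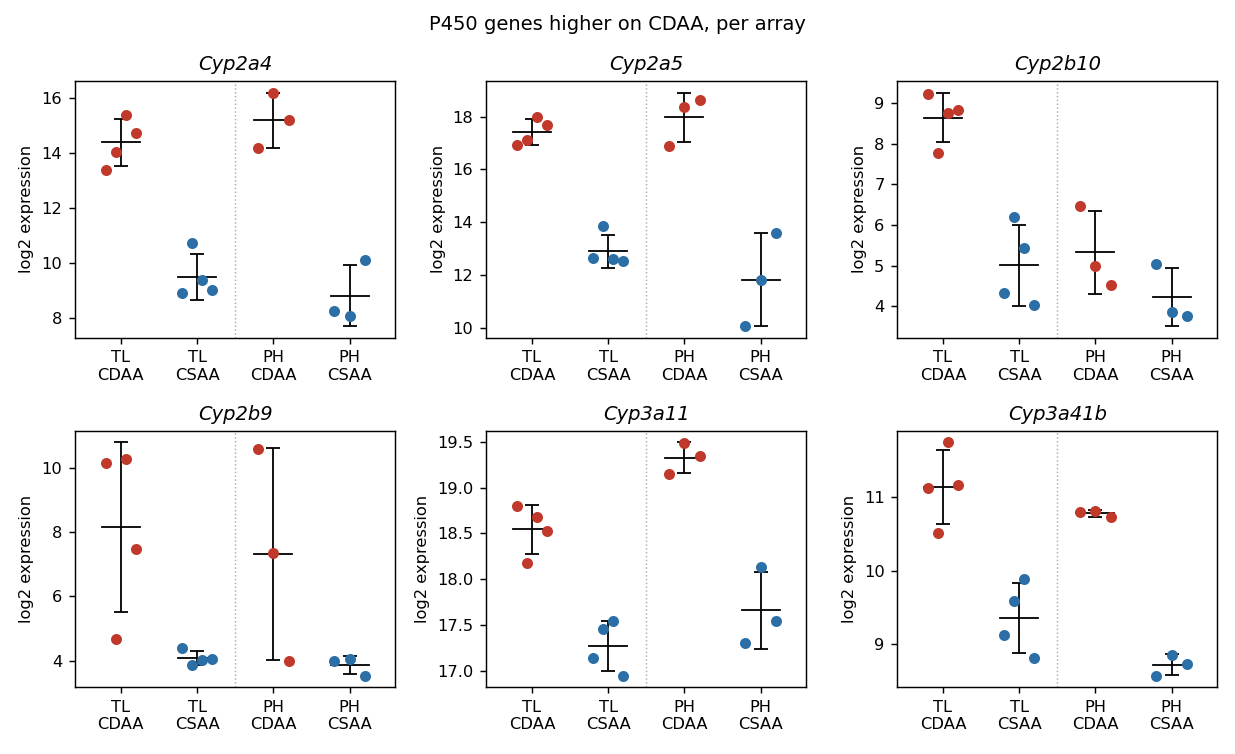
Log2 expression of 6 members that passed as higher on CDAA in total liver, 1 point per array, for total liver (TL) and hepatocytes (PH), CDAA in red and CSAA in blue; lines and bars are the mean and SD of 4 (TL) or 3 (PH) arrays. The diets are apart in both tissues for Cyp2a4, Cyp2a5, Cyp3a11 and Cyp3a41b, while Cyp2b9 spreads from 4.68 to 10.28 among the CDAA total livers.

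The Cyp2c subfamily was the one with members past the threshold in both directions in hepatocytes, and 6 of its 14 members were lower in total liver. In hepatocytes 8 were lower and 1 higher, and 5 of the 8 held with the spread of these arrays alone. Of the 18 hepatocyte markers, 2 were lower in total liver and 8 in hepatocytes, while the Cyp2a and Cyp3a members that passed were higher. A link between the markers and the Cyp2c values was not tested. Several members form epoxides of arachidonic acid, among them Cyp2c37, Cyp2c50, Cyp2c54 and Cyp2c23. Cyp2c54 read 10.99, 13.69, 12.71 and 12.98 in CDAA total livers, against 15.55, 15.39, 14.93 and 15.04 in CSAA total livers. It read 11.38, 10.44 and 10.31 in CDAA hepatocytes, against 13.42, 14.27 and 14.32 in CSAA hepatocytes. The groups were apart in both tissues, with differences of -2.63 ± 0.44 (adjusted p = 0.00102) and -3.29 ± 0.51 (adjusted p = 0.000219). Cyp2c40, female-biased in mouse liver, read 8.61, 8.78, 9.69 and 9.43 in CDAA total livers, against 14.03, 11.69, 12.72 and 13.33 in CSAA total livers. In hepatocytes it read 7.57, 7.17 and 6.72 on CDAA, against 11.26, 9.69 and 9.18 on CSAA. No CDAA array reached the lowest CSAA array of its tissue. Cyp2c40 fell by 3.81 ± 0.48 in total liver (adjusted p = 9.20e-05), and by 2.89 ± 0.56 in hepatocytes (adjusted p = 0.00148). As its CDAA total livers lay under the negative controls, the bound of the first difference is -2.91. Cyp2c69, a close copy, had differences of -2.35 ± 0.35 and -1.64 ± 0.40. Its hepatocyte call was lost without CDAA replicate 2 (adjusted p = 0.0517).

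Of the other Cyp2c members, Cyp2c67 was lower in both tissues (-1.69 ± 0.28 and -1.44 ± 0.32), as was Cyp2c37 (-1.26 ± 0.34 and -1.37 ± 0.39). The Cyp2c37 call in total liver was lost without CSAA replicate 1, 2 or 4 or CDAA replicate 1 or 2 (adjusted p 0.0513 to 0.0843). In hepatocytes it was lost without CSAA replicate 2 or CDAA replicate 2 or 3 (adjusted p 0.0608 to 0.100). Cyp2c68 passed in total liver (-1.09 ± 0.23) and not in hepatocytes (-0.55 ± 0.27, adjusted p = 0.180). Cyp2c23 (-1.81 ± 0.46), Cyp2c50 (-1.75 ± 0.49) and Cyp2c65 (-1.11 ± 0.33) passed in hepatocytes and not in total liver, where their differences were -0.82, -1.09 and -0.92. With each tissue's own spread, Cyp2c23 passed in total liver (adjusted p = 0.00297) and not in hepatocytes (adjusted p = 0.155), and so did Cyp2c50 (adjusted p = 0.0365 and 0.110). Cyp2c65 lay under the negative controls on both diets, with a bound of -0.18 in hepatocytes by the antigenomic controls. Cyp2c23 lost its call without CSAA hepatocyte replicate 1 or CDAA replicate 2 (adjusted p 0.0524 and 0.0593), and Cyp2c50 without CSAA replicate 1 or 2 or CDAA replicate 3 (adjusted p 0.0608 to 0.0846). Cyp2c38 went the other way. It read 14.29, 13.12, 15.08 and 14.44 in CDAA total livers, against 12.96, 11.98, 11.28 and 13.001 in CSAA total livers. It read 13.58, 12.29 and 10.98 in CDAA hepatocytes, against 10.53, 11.03 and 8.36 in CSAA hepatocytes. The groups overlapped in hepatocytes and not in total liver, yet the difference passed in hepatocytes alone (2.31 ± 0.73, adjusted p = 0.0374), against 1.93 ± 0.63 in total liver (adjusted p = 0.0670), and with the spread of 1 tissue alone the calls were the reverse. Cyp2c39, its neighbour in the gene cluster, differed by 1.11 and 1.25 and Cyp2c55 by 1.08 and 1.73, without passing in the joint fit. The Cyp2c55 groups did not overlap in hepatocytes (adjusted p = 0.0507), where it passed with the spread of those arrays alone (adjusted p = 0.0149). Cyp2c70, which makes muricholic acids in mice, read 15.95 to 16.42 in CDAA and 16.38 to 16.64 in CSAA total livers and did not pass (-0.27 ± 0.20, adjusted p = 0.435). Cyp2c66 did not pass either (-0.49 and -0.63). With the spread of total liver alone it did there (adjusted p = 0.0339), under background on both diets.

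The Cyp2d subfamily was the most uniform. All 9 members had negative differences in both tissues, 7 passed in total liver and 8 in hepatocytes. With the spread of the hepatocyte arrays alone, 7 of the 8 held. The members lie side by side on chromosome 15 in the RefSeq gene order, Cyp2d22 at 1 end and Cyp2d26 at the other, and are close copies. Cyp2d9, a male-biased testosterone hydroxylase, read 15.36, 17.20, 16.68 and 17.24 in CDAA total livers, against 18.50, 18.50, 18.52 and 18.52 in CSAA total livers. It read 16.86, 15.81 and 13.79 in CDAA hepatocytes, against 19.00, 18.23 and 18.80 in CSAA hepatocytes. The CSAA total livers lay within 0.1 of each other and every CDAA array lay below its controls. The differences were -1.89 ± 0.52 (adjusted p = 0.0290) and -3.19 ± 0.60 (adjusted p = 0.00117). The total liver call of Cyp2d9 was lost without any 1 CSAA total liver or CDAA replicate 1 or 3 in the pooled fit (adjusted p 0.0576 to 0.106), and passed with the spread of total liver alone (adjusted p = 0.00252). Cyp2d37-ps, a pseudogene that may be read through its copies, fell by 2.06 ± 0.27 (adjusted p = 0.000133) and by 2.77 ± 0.31 (adjusted p = 9.16e-06). Cyp2d12 fell by 1.68 ± 0.29 and by 2.54 ± 0.33, and Cyp2d40 by 1.33 ± 0.24 and by 2.37 ± 0.28. Cyp2d13 (-1.38 ± 0.37 and -2.87 ± 0.42), Cyp2d10 (-0.86 ± 0.23 and -1.98 ± 0.26) and Cyp2d34 (-1.03 ± 0.26 and -1.84 ± 0.30) also passed in both. Cyp2d34 lay under the negative controls on both diets in total liver, where its bound by the antigenomic controls is -0.13, and its CDAA hepatocytes lay under the negative controls, with a bound of -0.34. In total liver each of these 3 calls was lost without CSAA replicate 2 or 4 or CDAA replicate 1, that of Cyp2d10 also without CDAA replicate 2 or 4, and that of Cyp2d13 also without CSAA replicate 1 or 3 or CDAA replicate 2 (adjusted p 0.0506 to 0.0942). In hepatocytes they held whichever array was left out. Cyp2d22, regarded as the mouse counterpart of human CYP2D6, passed in hepatocytes (-1.67 ± 0.48, adjusted p = 0.0222) and not in total liver (-0.81 ± 0.41, adjusted p = 0.257). With each tissue's own spread these calls were the reverse (adjusted p = 0.173 and 0.0246). Its hepatocyte call was lost without CSAA hepatocyte replicate 1 or 2 or CDAA replicate 2 or 3 (adjusted p 0.0550 to 0.0836). Cyp2d26 passed in neither, at -0.06 ± 0.31 (adjusted p = 0.930) and -0.85 ± 0.36 (adjusted p = 0.113).

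Among the smaller subfamilies of family 2, Cyp2u1, a long-chain fatty acid hydroxylase, had the largest fall of all members in hepatocytes. It read 9.73, 10.68, 10.81 and 10.62 in CDAA total livers, against 13.29, 14.09, 13.26 and 13.37 in CSAA total livers. It read 9.44, 7.95 and 6.92 in CDAA hepatocytes, against 13.19, 12.78 and 12.63 in CSAA hepatocytes. The groups were more than 2 units apart in total liver and more than 3 in hepatocytes. Cyp2u1 fell by 3.04 ± 0.41 (adjusted p = 0.000163) and by 4.76 ± 0.48 (adjusted p = 2.60e-06). Cyp2r1, which carries out the first hydroxylation of vitamin D, read 9.68, 10.32, 9.86 and 9.84 in CDAA total livers, against 11.03, 10.80, 10.98 and 10.78 in CSAA total livers. In hepatocytes it read 8.90, 8.37 and 8.99 on CDAA, against 9.68, 9.68 and 9.67 on CSAA. The diets did not overlap, and the differences were -0.97 ± 0.19 (adjusted p = 0.00288) and -0.92 ± 0.22 (adjusted p = 0.00673). The hepatocyte call was lost with the spread of those arrays alone (adjusted p = 0.0787). Cyp2j5, an arachidonic acid epoxygenase of liver and kidney, read 16.13, 16.48, 16.56 and 16.52 in CDAA total livers, against 17.22, 17.24, 17.18 and 17.28 in CSAA total livers. It read 15.66, 15.63 and 15.36 in CDAA hepatocytes, against 17.53, 17.56 and 17.44 in CSAA hepatocytes. These are tight groups, well apart, with differences of -0.81 ± 0.16 (adjusted p = 0.00310) and -1.96 ± 0.18 (adjusted p = 1.21e-06). All 7 Cyp2j members had negative differences in both tissues, 3 past the threshold in total liver and 4 in hepatocytes. The others were Cyp2j9 (-1.81 ± 0.33 and -1.26 ± 0.38) and Cyp2j13 (-0.89 ± 0.18 and -0.66 ± 0.21) in both, and Cyp2j6 in hepatocytes (-1.02 ± 0.28), which with each tissue's own spread passed in total liver instead. The Cyp2j9 arrays on CDAA lay under the negative controls in both tissues, so its bounds are -0.028 and -0.46. By the negative controls, 4 of the 7 members, Cyp2j13 among them, lay under background on both diets in both tissues, so their signs say little. Of the 4 hepatocyte calls, that of Cyp2j5 held with the spread of those arrays alone. The hepatocyte call of Cyp2j9 was lost without CSAA replicate 1 or CDAA replicate 1 or 2, and that of Cyp2j6 without CSAA replicate 2 or 3 or CDAA replicate 1 (adjusted p 0.0519 to 0.116). That of Cyp2j13 was lost without CSAA hepatocyte replicate 3, any 1 CDAA hepatocyte array, CSAA total liver replicate 3 or CDAA total liver replicate 2 or 3 (adjusted p 0.0508 to 0.136). Cyp2f2, known for naphthalene epoxidation, read 17.41, 16.78 and 15.63 in CDAA hepatocytes, against 19.20, 18.25 and 18.97 in CSAA hepatocytes, without overlap (-2.20 ± 0.38, adjusted p = 0.000602). In total liver the Cyp2f2 groups did not overlap either, but the difference did not pass (-0.57 ± 0.33, adjusted p = 0.325). Nor did it with the spread of total liver alone (adjusted p = 0.0751). Cyp2w1 passed in hepatocytes under background on both diets (-0.60 ± 0.18, adjusted p = 0.0276), a call lost without CSAA replicate 1 or 3 or CDAA replicate 2 (adjusted p 0.0678 to 0.0836).

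**Figure D3:**
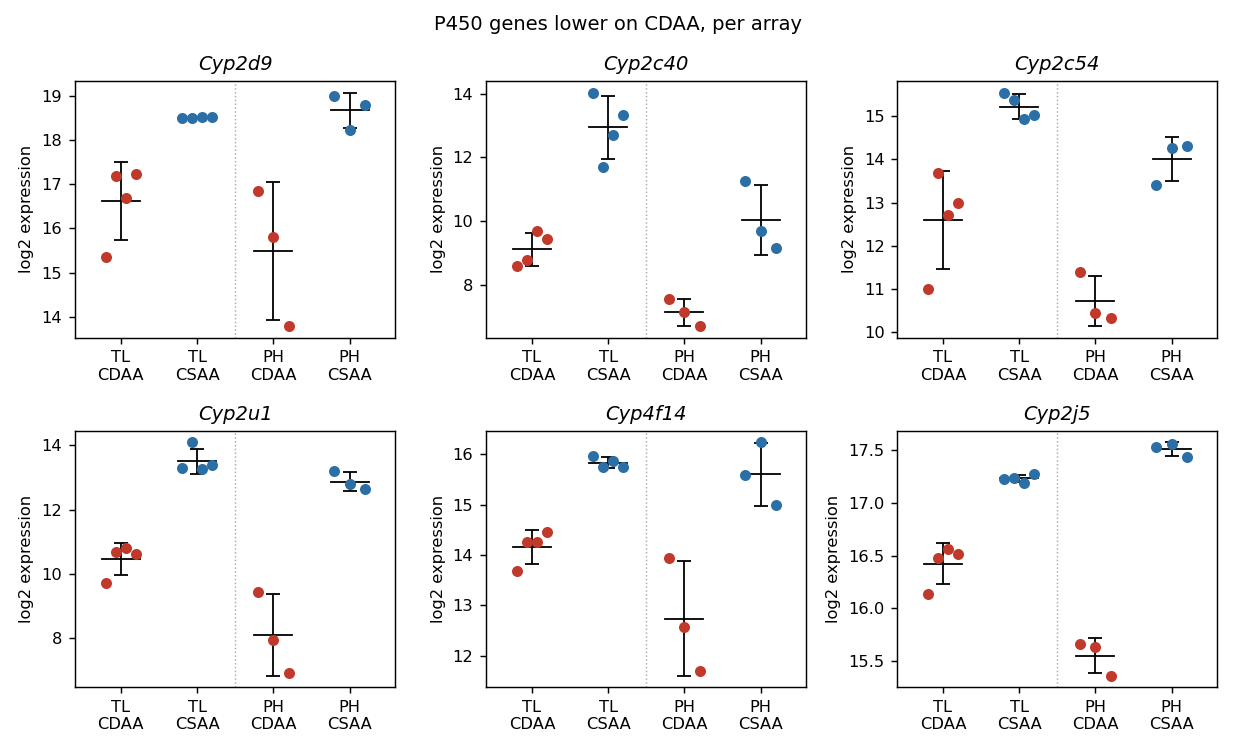
Log2 expression of 6 members that passed as lower on CDAA in both tissues, 1 point per array, for total liver (TL) and hepatocytes (PH), CDAA in red and CSAA in blue; lines and bars are the mean and SD of 4 (TL) or 3 (PH) arrays. Each gene's CDAA arrays lie below all CSAA arrays of the same tissue, and the CSAA total livers of Cyp2d9 and Cyp2j5 lie closest together.

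No member of the Cyp4a subfamily passed, and no direction is called for it. Cyp4a10 and Cyp4a14 are fatty acid hydroxylases and the best-known PPAR alpha targets of mouse liver. Cyp4a14 read 16.72, 15.68, 17.13 and 16.46 in CDAA total livers, against 15.85, 11.97, 10.38 and 15.54 in CSAA total livers. In hepatocytes it read 17.56, 14.53 and 11.68 on CDAA, against 16.23, 13.12 and 12.82 on CSAA. The CSAA total livers fell into a high pair, replicates 1 and 4, and a low pair, and the hepatocyte preparations of either diet spanned a range of 3.42 or more. The differences were 3.06 ± 1.26 (adjusted p = 0.150) in total liver and 0.53 ± 1.45 (adjusted p = 0.845) in hepatocytes. Cyp4a10 read 15.67, 15.78, 15.83 and 15.96 in CDAA total livers, against 15.63, 13.44, 11.89 and 14.72 in CSAA total livers. The CDAA total livers spanned 0.29 and the CSAA total livers 3.74, and although the groups did not overlap, the difference of 1.89 ± 0.69 did not pass (adjusted p = 0.101). With the spread of total liver alone it did (adjusted p = 0.0474). Its hepatocyte difference was -0.15 ± 0.80. On leaving out 1 array the hepatocyte differences ran from -0.95 to 1.99 for Cyp4a14 and from -0.99 to 0.50 for Cyp4a10. Cyp4a31 differed by 1.72 ± 0.67 and 0.16 ± 0.78, and Cyp4a32 by -0.22 ± 0.45 and -0.98 ± 0.52. Among the CSAA total livers replicate 1 was the highest and replicate 3 the lowest for all 4 of these genes. PPAR alpha targets outside P450 families 1 to 4, with Cyp8b1 among them, averaged 12.31, 11.53, 11.57 and 11.88 over the same 4 arrays. Replicates 1 and 4 were the higher pair there too. Cyp4a29 and Cyp4a30b lay under background on both diets in both tissues.

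**Figure D4:**
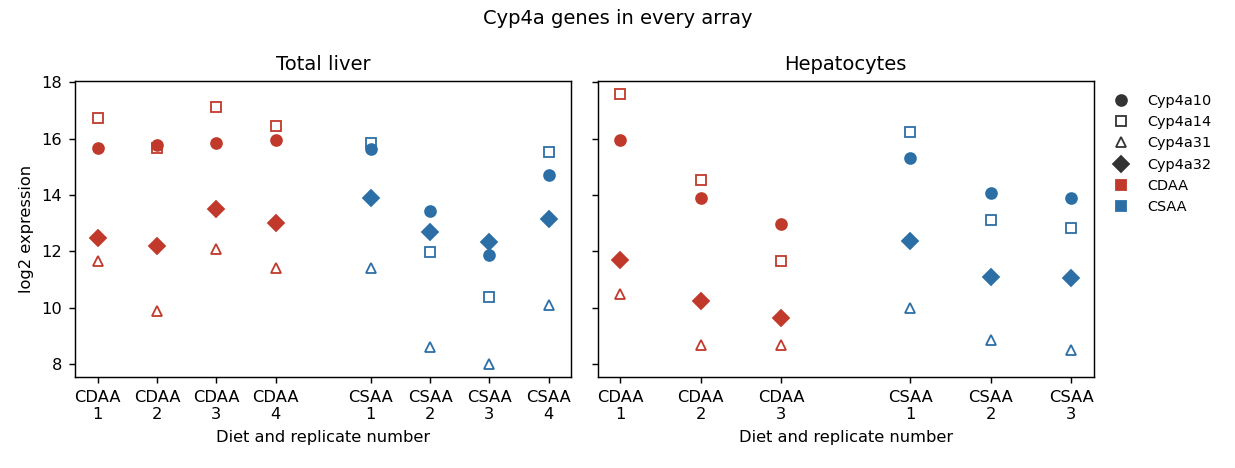
Log2 expression of Cyp4a10, Cyp4a14, Cyp4a31 and Cyp4a32 in every array, total liver on the left and hepatocytes on the right, with CDAA in red and CSAA in blue and replicate numbers along the axis. The 4 genes share their highest (replicate 1) and lowest (replicate 3) CSAA total liver, and Cyp4a14 ranges from 10.38 to 15.85 within that group.

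Cyp4f members hydroxylate leukotrienes, fatty acids and vitamin E. Of 10 members, 3 were lower and 1 higher in total liver, and 5 were lower in hepatocytes, of which 2 held with the spread of those arrays alone. Cyp4f14 read 13.67, 14.26, 14.26 and 14.45 in CDAA total livers, against 15.96, 15.75, 15.87 and 15.75 in CSAA total livers. It read 13.94, 12.57 and 11.69 in CDAA hepatocytes, against 15.58, 16.23 and 14.98 in CSAA hepatocytes. No array of 1 diet reached the other, and the differences were -1.67 ± 0.38 (adjusted p = 0.00889) and -2.86 ± 0.44 (adjusted p = 0.000182). Cyp4f13 (-2.27 ± 0.51, adjusted p = 0.00454) and Cyp4f15 (-1.49 ± 0.36, adjusted p = 0.00765) passed in hepatocytes and not in total liver (-0.95 and -0.51). With each tissue's own spread, Cyp4f13 passed in total liver (adjusted p = 0.0123) and not in hepatocytes (adjusted p = 0.0859). In the joint fit Cyp4f17 was lower in both tissues (-1.02 ± 0.28 and -1.30 ± 0.32), as was Cyp4f37 (-0.77 ± 0.23 and -0.85 ± 0.26). With the spread of the hepatocyte arrays alone neither passed there (adjusted p = 0.0940 and 0.192). In total liver both lay under the negative controls on both diets, and the hepatocyte bound of Cyp4f17 is -0.035. The total liver call of Cyp4f17 was lost without CSAA replicate 1 or 2 or CDAA replicate 1, 3 or 4 (adjusted p 0.0524 to 0.0880). That of Cyp4f37 was lost without any 1 of the total livers, CSAA hepatocyte replicate 2 or CDAA hepatocyte replicate 2 (adjusted p up to 0.128). In hepatocytes the call of Cyp4f17 was lost without CDAA replicate 2 (adjusted p = 0.0552), and that of Cyp4f37 without CSAA replicate 1 or 2 or CDAA replicate 2 or 3 (adjusted p up to 0.155). Cyp4f16 went the other way, at 9.66, 8.70, 9.03 and 8.74 in CDAA total livers, against 8.13, 7.69, 8.09 and 8.30 in CSAA total livers. These groups did not overlap (0.98 ± 0.23, adjusted p = 0.0129), but lay under the negative controls on both diets, and the hepatocyte difference of 0.80 ± 0.27 came close to the threshold (adjusted p = 0.0508). Without CSAA total liver replicate 2, Cyp4f16 had an adjusted p of 0.05001 and no longer passed. Cyp4f18, the leukotriene B4 hydroxylase of neutrophils, differed by -0.15 ± 0.32 and 0.33 ± 0.37. It lay under both kinds of control on both diets in total liver, and its CSAA hepatocytes lay under the negative controls. Of 9 neutrophil markers, 3 were higher in total liver and 4 in hepatocytes, but all 9 lay under the negative controls on both diets in total liver.

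Cyp4b1, best known as a lung P450 that activates furan toxins, differed between the tissues in its response to diet. It read 8.99, 9.15, 9.47 and 9.25 in CDAA total livers, against 9.45, 9.13, 9.34 and 9.65 in CSAA total livers. It read 9.86, 11.15 and 11.04 in CDAA hepatocytes, against 7.35, 7.66 and 7.40 in CSAA hepatocytes. The diets overlapped in total liver, where all arrays lay under the negative controls, and were more than 2 units apart in hepatocytes. The difference was -0.18 ± 0.25 (adjusted p = 0.723) in total liver. In hepatocytes it was 3.21 ± 0.29 (adjusted p = 9.06e-07), and at least 2.94 as the CSAA arrays lay under the negative controls. Replicate 1, which had the lowest Cyp4b1 of the CDAA hepatocytes, also had their lowest macrophage marker mean (11.10, against 12.76 and 12.40) and stellate cell marker mean (9.17, against 10.22 and 9.99). Its sinusoidal endothelial marker mean was 10.51, against 10.52 in replicate 2 and 9.37 in replicate 3, which was the lowest. The part of other cells in this rise was not tested. Cyp4b1-ps2, a pseudogene, was under background on both diets and passed in hepatocytes (1.17 ± 0.30, adjusted p = 0.0119), a call lost without CDAA replicate 2 (adjusted p = 0.0632).

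Tests of the diet difference in total liver minus that in hepatocytes passed for 2 members (2.56%, against 2.57% of all probe sets). The 1 negative call was Cyp4b1 (-3.39 ± 0.38, adjusted p = 9.40e-05), against 2.36% of all probe sets called negative. The 1 positive call was Cyp2j5, whose fall was smaller in total liver (1.15 ± 0.24, adjusted p = 0.0140), against 0.212% called positive. The Cyp2j5 call was lost after joint quantile normalization (0.81, adjusted p = 0.0981). At an unadjusted p under 0.05 there were 11, a count without its share over all probe sets, so no excess is read from it. Across the 78 members the differences of the tissues correlated at r = 0.864 and rho = 0.880, against r = 0.777 over all probe sets, and had the same sign in 62 (79.5%, against 73.7%). Genes are not independent replicates, and how far the probe sets of close copies read each other is uncertain. Of the members, 6 were higher in both tissues, 20 lower in both and none opposite. The share of all probe sets with such paired calls was not counted, so no excess is read from these. Without CDAA hepatocyte replicate 1, 37 members passed in total liver (against 14% of all probe sets), 41 in hepatocytes (26.2%) and 15 for the difference (10.2%). Without CDAA hepatocyte replicate 3 the counts were 35 (against 12.7%), 36 (18.4%) and 2 (2.85%). The 15 included Cyp2u1 (2.39, adjusted p = 0.00331), Cyp2f2 (2.03, adjusted p = 0.00895), Cyp2c23 (1.72, adjusted p = 0.00948) and Cyp2b10 (3.10, adjusted p = 0.0105). These 4 were named after their values were seen, and in the first 3 the fall was larger in hepatocytes.

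**Figure D5:**
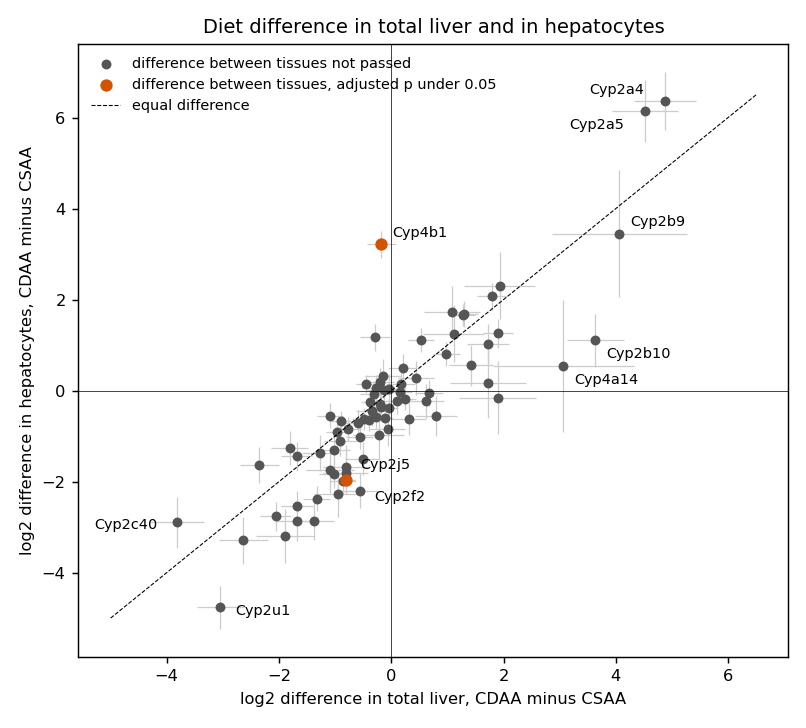
Log2 difference between CDAA and CSAA of each of the 78 members in total liver (horizontal axis) and hepatocytes (vertical axis), with standard errors; the dashed line marks equal differences. Orange points, Cyp4b1 and Cyp2j5, passed the test between tissues, and Cyp2a4 and Cyp2a5 lie highest on both axes.

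Several well-known liver P450s did not pass on this diet. Cyp2e1, the ethanol-oxidising P450 of the pericentral zone, read 17.87, 17.98, 18.54 and 18.51 in CDAA total livers, against 18.60, 18.58, 18.32 and 18.51 in CSAA total livers. In hepatocytes it read 19.38, 19.18 and 18.57 on CDAA, against 18.42, 19.25 and 19.28 on CSAA. The groups overlapped in both tissues, with differences of -0.28 ± 0.25 (adjusted p = 0.540) and 0.06 ± 0.28 (adjusted p = 0.916). Cyp1a2, the caffeine-oxidising P450, read 15.74, 16.77, 16.85 and 16.90 in CDAA total livers, against 16.93, 16.96, 16.66 and 16.21 in CSAA total livers. Its differences were -0.12 ± 0.32 (adjusted p = 0.858) and 0.02 ± 0.36 (adjusted p = 0.977). Cyp1a1 (0.17 ± 0.26 and 0.15 ± 0.30) and Cyp1b1 (0.44 ± 0.32 and 0.27 ± 0.37), the other AhR targets of family 1, lay under background on both diets in both tissues. Of 8 pericentral markers outside the P450 families none passed in total liver, while in hepatocytes Lect2 (1.73) and Aldh1a1 (0.85) were higher. Cyp2g1, Cyp2s1, Cyp2t4 and Cyp4x1 lay under background throughout.

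Members that are female-biased in mouse liver were followed in these males as a list of 10. In each tissue 5 were higher and 2 lower. Of all probe sets, 6.73% were higher and 3.54% lower in total liver, and 11.0% and 7.74% in hepatocytes. On CSAA, 7 of the 10 lay under the negative controls in total liver. Higher in both were Cyp2a4, Cyp3a41a, Cyp3a41b and Cyp3a44, with Cyp2b9 in total liver and Cyp3a16 in hepatocytes. As given above, Cyp3a41a in total liver and Cyp3a16 in hepatocytes lay under background on both diets, and the Cyp2b9 call was lost without most single arrays. The lower ones in both tissues were Cyp2c40 and Cyp2c69. The list median was 1.21 in total liver, against -0.09 over all probe sets, and 1.25 in hepatocytes, against -0.13.

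Around the enzymes themselves, the electron donors and heme genes were mixed. The list counts below stand beside 6.73% of all probe sets higher and 3.54% lower in total liver, and 11.0% and 7.74% in hepatocytes. Of 15 measured, 2 were higher and 1 lower in total liver, and 3 were higher and 3 lower in hepatocytes. Those that passed as higher act in heme breakdown, and those that passed as lower in electron supply or heme synthesis. The heme synthesis gene Alas1 did not pass, at 0.81 ± 1.11 (adjusted p = 0.706) in total liver and 3.03 ± 1.28 (adjusted p = 0.117) in hepatocytes. The other heme synthesis genes measured had negative differences in both tissues, most of them not past the threshold. The falls that passed were -0.70 in total liver and -0.75 to -1.62 in hepatocytes, and no electron donor passed as higher. P450 oxidoreductase was not among the genes measured. Hmox1, heme oxygenase, was higher by 3.44 (adjusted p = 6.11e-06) and 6.72 (adjusted p = 6.37e-09), and the biliverdin reductase gene Blvrb by 1.36 (adjusted p = 0.0341) and 2.76 (adjusted p = 0.000306). The test between tissues passed for Hmox1 (-3.28, adjusted p = 0.00129), which macrophages also express. Of 25 receptors and transcription factors that control P450 genes, 1 was lower in total liver, Onecut1 (-3.96, adjusted p = 0.0311), which is named as the only one. A count of 1 in 25 is near the 3.54% of all probe sets. In hepatocytes 5 were lower, with Nr3c1, the glucocorticoid receptor (-1.42, adjusted p = 0.00169), and Cebpa (-2.12, adjusted p = 0.00186) among them, and none was higher in either tissue. Of 16 CAR and PXR targets outside the P450 families, 9 were higher in total liver and 10 in hepatocytes, with none lower and list medians of 1.21 and 1.22. The glutathione transferase genes Gsta2 (6.78 and 6.52) and Gstm3 (3.61 and 5.88) and the drug exporter gene Abcb1a (4.06 and 3.73) had the smallest p. Of 5 AhR targets, 2 were higher in total liver, Nqo1 (3.42) and Gsta2, which is in both lists, and 3 in hepatocytes, where Tiparp (0.77, adjusted p = 0.0362) joined them. Of 26 PPAR alpha targets, 2 were higher and 2 lower in total liver, and 2 higher and 4 lower in hepatocytes. The higher counts are near the shares of all probe sets, and no change of the list is read from these few calls. Acot2, an acyl-CoA thioesterase, was higher by 3.96 and 3.71, and the fatty acid binding protein gene Fabp1 fell by 1.09 and by 1.55. Cyp8b1 was lower too (-2.97 and -3.87) and is itself a P450 gene, counted in the next list as well. P450 genes of the other families numbered 20, of which 4 were higher and 3 lower in total liver, and 4 higher and 5 lower in hepatocytes. The sterol demethylase gene Cyp51 fell by 4.23 and by 5.0 and the oxysterol hydroxylase gene Cyp7b1 by 3.84 and by 5.08. Tbxas1, thromboxane synthase of macrophages and platelets, was higher by 2.93 and 5.65.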

How the data were processed

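RNA of total liver and primary hepatocytes was measured on 14 arrays. The deposited values are log2 signals per probe set that the authors made by RMA, per the submitters' processing notes, and the version is not given in the sources used here. Of 28846 probe sets, 6640 are controls; every one of the other 22206 was tested, and 19572 of these carry a gene symbol. limma 3.58.1 (R 4.3.3) fitted all arrays together, giving each group its own mean (degrees of freedom: 10 residual, 5.11 prior). The diets were contrasted within total liver and within hepatocytes as CDAA minus CSAA, and these differences with each other as total liver minus hepatocytes. Tests were two-sided, and p-values were adjusted by the Benjamini-Hochberg method over the 22206 with a threshold of 0.05. The code was tested on simulated data, where sharing 1 spread between the tissues gave excess calls in hepatocytes, so calls with each tissue's own spread are printed too. A group counted as under background where every array lay under the control level of that array. A bound puts that level in place of such a group's values and keeps the other group's values as measured, including any under the level. Members and lists were chosen with earlier results of these data known. Named members were the fixed ones (31 of 33 measured) and up to 8 per subfamily with the smallest p among those past the threshold, 56 in all. Members outside this rule, such as Cyp2c38, Cyp2c39, Cyp2c55 and Cyp2c65, and the listed genes Onecut1 and Alas1 were named after their values were seen. Per other list up to 3 were named. Gene symbols came from the platform annotation given with the series, and promoters from RefSeq. Arrays of equal replicate number were not treated as pairs, since their residuals correlated at 0.346, -0.211 and 0.262 in hepatocytes and at 0.015, -0.014, -0.126 and -0.022 in total liver. Alternatives were moderation with a trend or robust to outliers, fits of only the compared groups, no dim probe sets (the lowest 30%), a block for the replicate number, weights per array, quantile normalization of all arrays jointly, centring each array on its median, the mean over probe sets, other background levels and leaving out each array.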

Additional observations from a re-analysis of the deposited data

Results flagged for a closer look

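Among 112 groups of 4 total liver arrays, 6 held an array far from the other 3, where chance gives about 1 in 20. Cyp1a2 read 15.74 in CDAA replicate 1, against 16.77 to 16.90 in the others. Cyp2a5 read 13.84 in CSAA replicate 2, against 12.52 to 12.65. Cyp2c70 read 15.95 in CDAA replicate 2, against 16.35 to 16.42. Cyp2d34 read 5.63 in CDAA replicate 1, against 6.39 to 6.54. Cyp2u1 read 14.09 in CSAA replicate 2, against 13.26 to 13.37. Cyp4f17 read 7.25 in CDAA replicate 3, against 7.85 to 7.93.

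The diet difference itself differed between the tissues by the interaction test for Cyp4b1 (total liver minus hepatocytes -3.39) and Cyp2j5 (1.15). The Cyp2j5 call was lost after joint quantile normalization (adjusted p = 0.0981).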

How the results depend on the processing

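No value that passed, with all arrays or under the alternative, changed direction. Of 168 named values, 26 that passed in neither changed sign under some alternative, 20 of them on leaving out an array. Of the named members' values, 1364 kept their side of the threshold under the other alternatives, 38 dropped below it and 45 came above it; on leaving out an array these were 2230, 94 and 28. Joint quantile normalization gave 1 member for the difference between tissues and 0 higher, and so did the replicate block (1 and 0), the call of Cyp2j5 being lost in both (adjusted p up to 0.0981); the block moved no other count of members by over 1.5 times. Array weights gave 51 members in total liver (20 higher), 11 P450 genes of the other families there, and 12 for the difference (10 higher, 2 lower). With only the compared groups in the fit, hepatocytes gave 24 members (17 lower) and 5 P450 genes of the other families, and no value for the difference. Array weights per tissue, chosen after the data were seen, gave 24 members in hepatocytes (16 lower) and 6 CAR and PXR targets. The cause was not tested. Of these settings, the share of all probe sets was counted for the fits of only the compared groups (20.8% in total liver, 8.48% in hepatocytes). For the others no gain of members over all probe sets is read. Median differences over all probe sets were -0.09 and -0.13, and -0.23 and -0.29 after centring on array medians.

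Leaving out 1 array gave 23 to 37 members in total liver (9 to 13 higher, 14 to 24 lower), 27 to 41 in hepatocytes (8 to 12 higher, 19 to 30 lower) and 2 to 15 for the difference (1 to 13 higher, 1 to 2 lower). The highest difference counts came without CDAA hepatocyte replicate 1, and the 19 lower members without CDAA hepatocyte replicate 2. CAR and PXR targets numbered 7 to 12 and 7 to 10, and P450 genes of the other families 6 to 10 and 8 to 11. Signal over background limits the dim members: by the median of the negative controls 22 in total liver and 13 in hepatocytes lay under background on both diets, and by the antigenomic control 24 and 21.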
